A study of Mus musculus with 28 samples.

Results

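Plasma of young adult mice, 2 months old, was compared with plasma of mice that had reached 6 or 8 months. Plasma here is the fluid left after centrifugation had removed cells, platelets and debris and ultracentrifugation had pelleted the extracellular vesicles (EVs), so the libraries hold RNA that circulates outside EVs. The libraries were taken by their labels: 3 libraries from 2-month-old mice, 4 from mice aged 6 months and 3 from mice aged 8 months, in all 10 of the 28 libraries of the series, with no choice by measured values. The animals were females of the inbred strain C57BL/6N, and the study lists as many mice at each of these ages as there are plasma libraries. For replicates 2 and 3 at 2 months the labels give a single code that joins both mouse numbers. Those libraries cannot be assigned to their mice, and the labels do not say whether plasma of both mice was pooled. The 6- and 8-month libraries were read as 1 group of 7 and also apart. Because the 6- and 8-month contrasts share the 2-month libraries, their values stand side by side below and were not compared with each other as independent results.

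Cell-free RNA of plasma is protected from nucleases mainly by bound proteins such as Argonaute and by lipoproteins. It derives largely from blood cells, endothelium and liver. Red cells contribute miR-451a, the miR-144 arms and miR-486, which are made in large amounts during erythropoiesis and remain in mature red cells after the nucleus is lost. Fragments of tRNA, often cut at the anticodon loop, and of ribosomal and Y RNA are abundant outside EVs. In bulk plasma, fewer cells of a type that release RNA and less RNA released per cell cannot be told apart.

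The mature sequences of the miRNAs on which the comparison turns are given first, from RefSeq on GRCm38.p6, 5′ to 3′, with the seed (bases 2 to 8) in capitals. In all, 52 of 65 miRNAs looked up had an entry. The first 3 come from a single cluster on chromosome 11, at chr11:78073010-78073032 for miR-144-5p, chr11:78073047-78073066 for miR-144-3p and chr11:78073186-78073207 for miR-451a, all on the plus strand. They are shown as red cell miRNAs of 1 cluster, each with a seed of its own.
miR-144-5p: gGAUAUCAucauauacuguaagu
miR-144-3p: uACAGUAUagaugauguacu
miR-451a: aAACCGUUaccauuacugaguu
The next 3 come from the miR-106b-25 cluster, which lies in an intron of Mcm7, a helicase gene, on the minus strand: miR-106b-5p at chr5:138165787-138165807, miR-93-5p at chr5:138165574-138165596 and miR-25-3p at chr5:138165332-138165353. They are shown with miR-92a-3p of the related miR-17-92 cluster because miR-106b-5p and miR-93-5p share the seed AAAGUGC, and miR-25-3p and miR-92a-3p share the seed AUUGCAC. miR-93-5p and miR-92a-3p were added for their seeds after their values had been seen.
miR-106b-5p: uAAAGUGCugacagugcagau
miR-93-5p: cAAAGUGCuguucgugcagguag
miR-25-3p: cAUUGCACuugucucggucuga
miR-92a-3p: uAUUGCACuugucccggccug
miR-296-5p, at chr2:174267093-174267113 on the minus strand, is shown because it had the lowest fitted log2 change of the miRNAs that the naming rule selected.
miR-296-5p: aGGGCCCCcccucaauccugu

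Total counts ran from 8483227 to 20634744 per library in the 2-month group, from 928651 to 7889621 in the 6-month group and from 6306406 to 14209150 in the 8-month group. Counts of miRNAs were far fewer, between 4977 and 74525 per library. The scaling factor that edgeR set for each library (TMM, trimmed mean of M values) was 0.47 to 0.97 at 2 months and 0.65 to 1.55 at 6 and 8 months. Depth and scaling factor thus moved with age, and their part in the results below was not tested. Replicate 1 at 6 months was the shallowest library, and its median correlation with the others was 0.83, against at least 0.91 for the rest. Replicate 1 at 8 months had the factor of 0.65 and 14209150 counts, nearer to the 2-month libraries than to the other 6 older ones, whose factors were 1.13 to 1.55. Counts of calls and the medians of the rRNA, tRNA and miRNA classes are given with and without it, as is the adjusted p of the RNAs described in most detail.

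By class, tRNA made up 63.4% ± 4.29 of counts in the 2-month libraries (SD, n = 3), 55.7% ± 8.57 in the 6-month libraries (n = 4) and 49.7% ± 5.06 in the 8-month libraries (n = 3). The tRNA share ran from the highest at 2 months to the lowest at 8 months in the means, but the 6-month libraries overlapped both. The difference between 6-8 and 2 months was -10.2 percentage points (two-sided exact permutation test, p = 0.0583, Benjamini-Hochberg adjusted p = 0.133 over 10 classes). Circular RNA (circRNA), joined by back-splicing of host gene exons, made up 8.73% ± 2.94 at 2 months and 16.1% ± 4.19 at 6-8 months (exact p = 0.05, adjusted p = 0.133). For long noncoding RNA (lncRNA) the shares were 2.61% ± 0.968 and 4.57% ± 1.11 (exact p = 0.0583, adjusted p = 0.133). Small nucleolar RNA (snoRNA), which guides modification of rRNA, took 0.051% ± 0.00864 and 0.0805% ± 0.0182 of counts (exact p = 0.0417, adjusted p = 0.133). The rRNA share was 13.2% ± 1.19 at 2 months, 10.8% at 6 months and 14.8% at 8 months, and the difference of -0.714 points for the joint group was within the spread (exact p = 0.783). miRNA was 0.319% ± 0.0647 at 2 months, 0.464% ± 0.0496 at 6 months and 0.339% ± 0.07 at 8 months (exact p = 0.142, adjusted p = 0.236 for 6-8 months). No class passed the threshold of 0.05 after adjustment, and with 120 arrangements of the libraries the smallest p that the test can give is 0.00833. A read that matches several identical copies appears to be counted for each, so these are shares of counts and not of molecules.

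**Figure D1:**
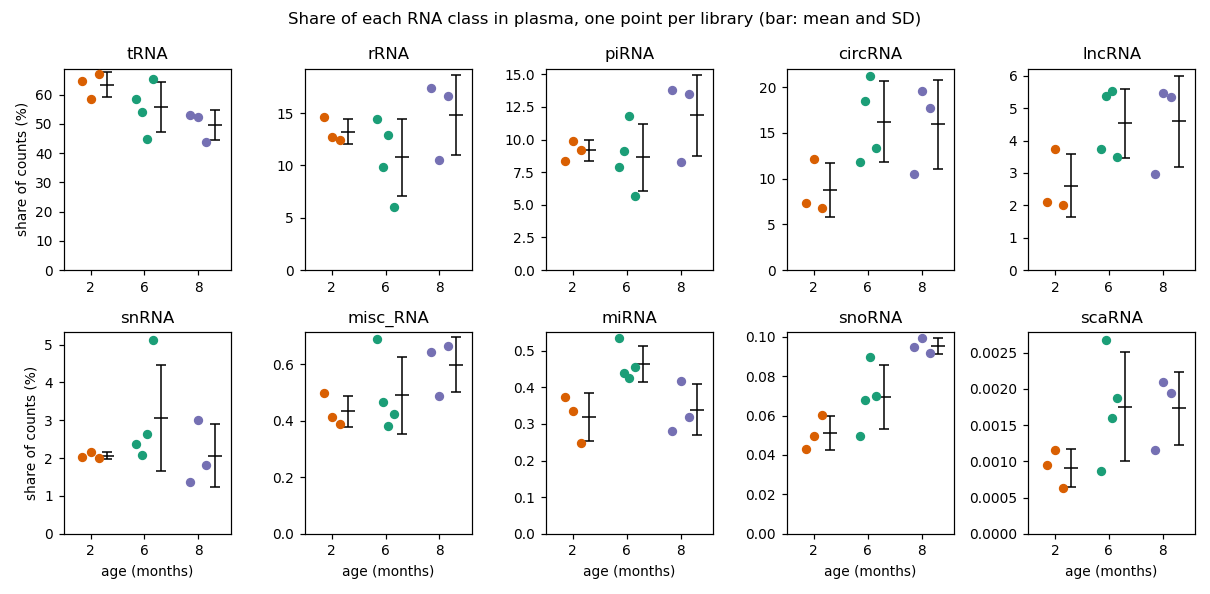
Share of each library's counts (%, vertical axes from 0, each with its own range) taken by each of 10 RNA classes, against age in months (2, 6 and 8). Each point is a library and each bar gives the mean and SD of an age; the tRNA means descend from 63.4% to 49.7% and the circRNA means are higher at 6 and 8 months, with overlap between ages.

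Of 20036 RNAs tested (at least 1 RPM in 2 of the 10 libraries), 0 passed an adjusted p of 0.05 between 6-8 and 2 months (0%, edgeR quasi-likelihood test). At an unadjusted p under 0.05, 803 were lower (4.01%) and 1000 higher (4.99%) at 6-8 months, a split that became 557 lower and 1570 higher under the authors' RPM scaling. DESeq2 called 192 lower and 28 higher at the adjusted threshold, and it gave no adjusted p for 9024 of the 20036. Leaving out replicate 1 at 8 months, edgeR called 426 RNAs, 407 lower (2.03%) and 19 higher (0.0948%), and without replicate 2 at 2 months it called 38 lower, all of them among those 426. Leaving out any of the other 8 libraries gave 0 calls. Of the 220 RNAs called by DESeq2, 192 were also among the 426 called without replicate 1 at 8 months. RPM of all 7 older libraries was below all 3 younger ones for 104 RNAs (0.519%) and above for 303 (1.51%). The filter admits RNAs that reach 1 RPM in 1 age group alone, and the older group holds 7 of the 10 libraries.

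**Figure D2:**
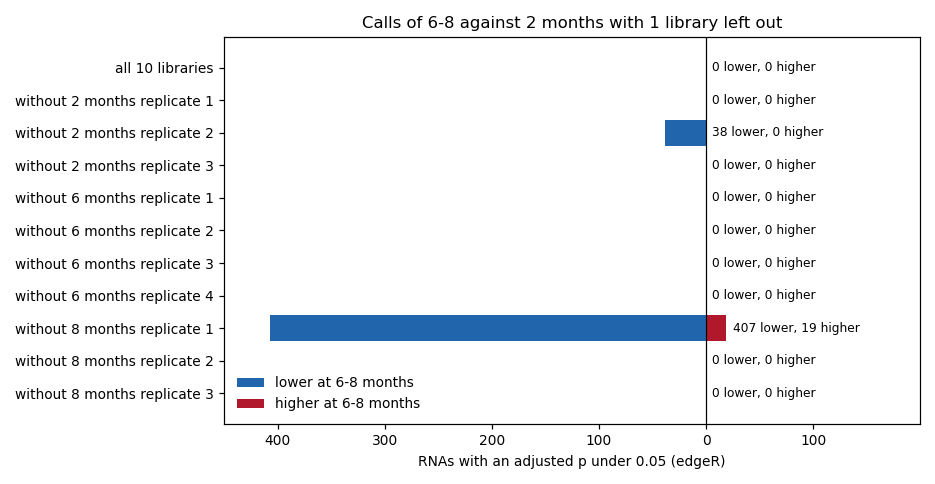
Number of RNAs with an adjusted p under 0.05 (edgeR) for 6-8 against 2 months with all 10 libraries and with each left out in turn; bars to the left count RNAs lower at 6-8 months, bars to the right those higher. Calls appeared without replicate 1 at 8 months (407 lower, 19 higher) and without replicate 2 at 2 months (38 lower).

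The classes differed in where their RNAs lay. The median log2 change of all RNAs tested was 0.17 under TMM, 0.36 under the authors' RPM scaling and 0.65 when scaled to miRNAs. Class values are therefore also given relative to it. Under TMM that median depended on the filter and the libraries. It was 0.02 with the filter of edgeR (filterByExpr), 0.03 at 5 RPM in 5 libraries and 0.04 without replicate 1 at 6 months. The relative values below hold for the filter used here. The rRNA median was -1.43 (-1.60 relative to the median of all), the tRNA median -0.72 (-0.89 relative) and the miRNA median -0.46 (-0.63 relative). Without replicate 1 at 8 months these medians were -2.05, -1.17 and -0.74, and that of all RNAs 0.01. lncRNA and circRNA, which make up most RNAs tested, lay at 0.18 and 0.20. By unadjusted p, 113 of 155 rRNAs (72.9%), 166 of 407 tRNAs (40.8%), 53 of 275 miRNAs (19.3%) and 127 of 1075 piRNAs (11.8%) were lower, beside 4.01% of all RNAs. In the other direction 2 rRNAs (1.29%), 0 tRNAs (0%), 2 miRNAs (0.727%) and 104 piRNAs (9.67%) were higher, beside 4.99% of all RNAs. Many rRNA and tRNA genes share reads and are not independent. The rRNA median was -1.33 under RPM scaling and -0.95 when scaled to miRNAs, and the tRNA median -0.50 and -0.26. The miRNA median was -0.24 and 0.03, and scaling to miRNAs places it near 0 by design. Relative to the median of all RNAs, the miRNA median was -0.60 under RPM scaling and -0.62 when scaled to miRNAs.

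**Figure D3:**
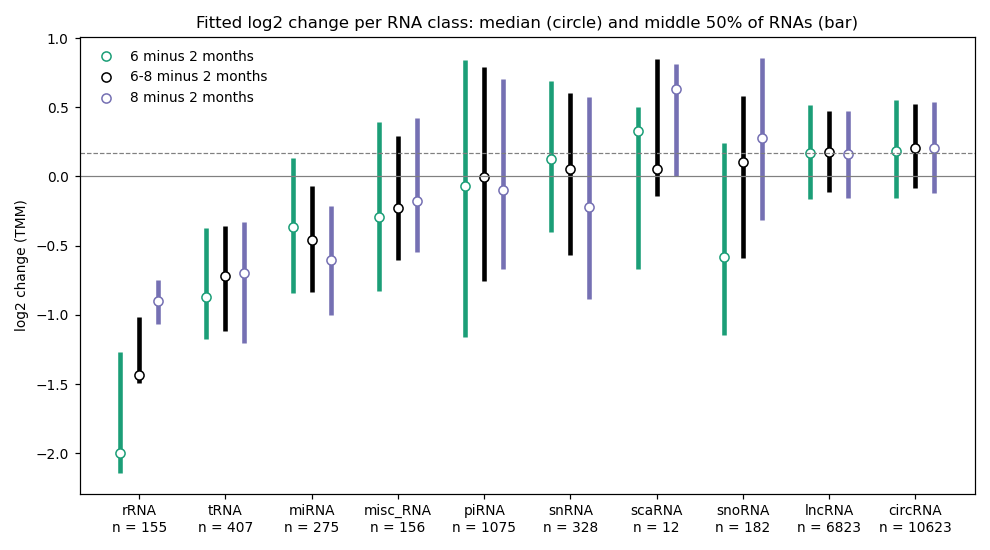
Fitted log2 change (TMM) in plasma per RNA class: circles are medians and bars span the middle 50% of RNAs, for 6 minus 2 months, 6-8 minus 2 months and 8 minus 2 months; the dashed line is the median of all RNAs (0.17). rRNA and tRNA medians lie lowest, at -1.43 and -0.72 for 6-8 minus 2 months, and rRNA lies lower at 6 months (-1.996) than at 8 months (-0.90).

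Of the miRNA lists tested, that of red cells had the lowest median. All 7 members of the red cell list were tested, all 7 had an unadjusted p under 0.05 in the direction of lower (beside 4.01% of all RNAs and 19.3% of miRNAs), and 5 had all 7 older libraries below the 3 younger ones (beside 0.519% and 3.64%). The lists had been chosen with earlier results of these data known. Their median log2 change was -1.52 under TMM, -1.35 under RPM scaling and -1.07 when scaled to miRNAs, so the direction did not depend on the scaling. With all libraries none passed after adjustment (edgeR). Without replicate 1 at 8 months 6 of 7 did, beside 2.03% of all RNAs and 7.27% of miRNAs called lower in that fit. Over all 10 libraries DESeq2 called 15 of the 275 miRNAs tested, all lower, beside 220 of 20036 RNAs of all classes. These 15 are of all miRNAs and not of the red cell list.

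miR-144-5p, the arm of miR-144 that shares its hairpin with the miR-144-3p strand, read 50.1, 27.1 and 21.7 RPM at 2 months. At 6 months it read 17, 12.9, 9.32 and 14.7 RPM, and at 8 months 12.3, 14.4 and 11.6 RPM. No older library reached the lowest younger one. The log2 change was -1.53 ± 0.27 (SE; unadjusted p = 5.2e-05, edgeR adjusted p = 0.10; 0.018 without replicate 1 at 8 months). miR-486a-5p, enriched in erythroid cells, read 196, 133 and 114 RPM at 2 months. It read 85.1, 42.8, 43 and 60.3 RPM at 6 months and 74.9, 49.2 and 53.6 RPM at 8 months. Again the groups did not overlap, with a log2 change of -1.52 ± 0.30 (edgeR adjusted p = 0.15; 0.015 without replicate 1 at 8 months). Its opposite arm, miR-486a-3p, read 6.14 to 15.9 RPM at 2 months and 1.7 to 4.95 RPM at 6-8 months, with a log2 change of -1.84 ± 0.37. miR-486b is nearly identical to miR-486a, and the 2 cannot be counted as separate evidence.

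miR-451a, processed by Argonaute-2 in place of Dicer, was the most abundant miRNA. It read 2378, 1095 and 933 RPM at 2 months, 1149, 638, 515 and 720.1 RPM at 6 months, and 617, 687 and 644 RPM at 8 months. Replicate 1 at 6 months lay above 2 of the 3 younger libraries, so the groups overlapped, and the 8-month libraries lay closer together than the others. The log2 change was -1.26 ± 0.32 (edgeR adjusted p = 0.23; 0.031 without replicate 1 at 8 months). miR-144-3p overlapped more, at 80.1 to 356 RPM and 75.5 to 213 RPM, with a log2 change of -1.06 ± 0.38 and an adjusted p of 0.14 without that library. miR-16-5p, abundant in red cells but made in most cells, had -1.02 ± 0.30. The summed RPM of the red cell list was 1274 to 3197 at 2 months and 691 to 1549 at 6-8 months, with overlap through replicate 1 at 6 months, and each sum is mostly miR-451a. Cells had been spun out of the plasma before RNA was taken, per the protocol. The part of red cell RNA in the other results was not tested.

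**Figure D4:**
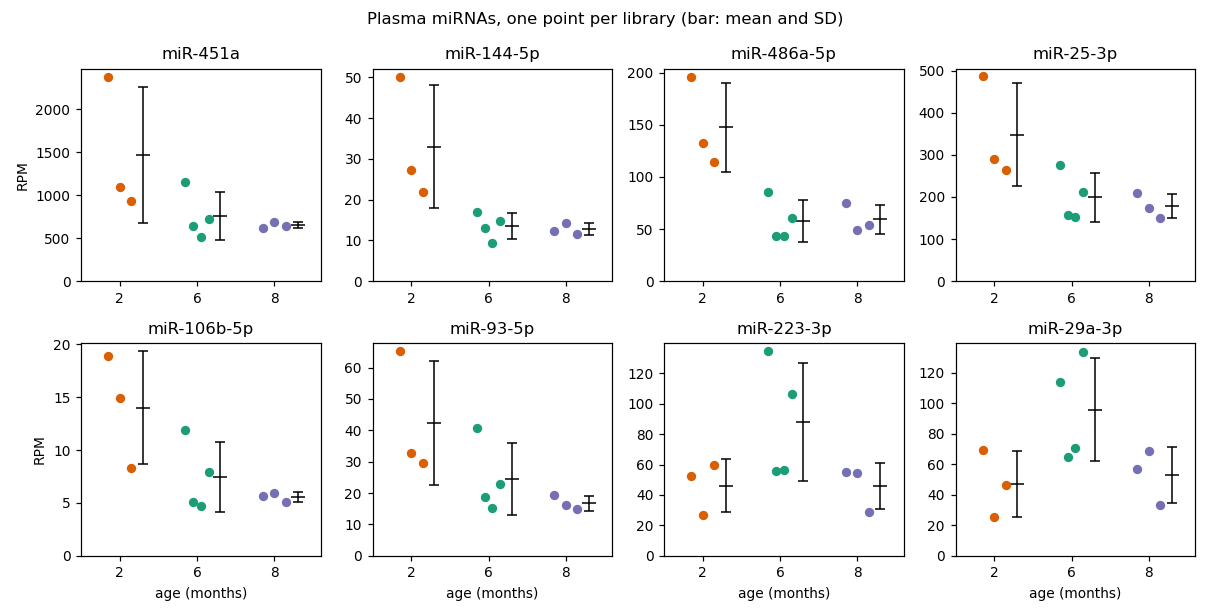
RPM of 8 plasma miRNAs against age in months, 1 point per library with the mean and SD of each age; vertical axes start at 0 and differ between panels. miR-144-5p and miR-486a-5p have all older libraries below the younger ones, whereas miR-223-3p and miR-29a-3p overlap.

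The miR-17-92 cluster and its paralogs, which promote proliferation and are high in haematopoietic progenitors, followed with a median of -0.95 (-0.79 under RPM scaling, -0.42 when scaled to miRNAs). Of 10 members tested of 12, 8 had an unadjusted p under 0.05, lower in each case, and none higher, beside 19.3% of miRNAs lower. Without replicate 1 at 8 months 4 of 10 passed after adjustment, beside 7.27% of miRNAs called lower. Those were the 4 printed above with shared seeds. miR-106b-5p read 18.9, 14.9 and 8.31 RPM at 2 months, then 11.9, 5.13, 4.72 and 7.9 RPM at 6 months and 5.66, 5.98 and 5.05 RPM at 8 months. Its log2 change was -1.36 ± 0.28 (edgeR adjusted p = 0.17; 0.023 without that library), and replicate 1 at 6 months kept the groups from separating. miR-25-3p, the most abundant member, read 488, 291 and 264 RPM against 276, 158, 151 and 212 RPM and 209, 175 and 151 RPM (log2 change -1.07 ± 0.29). For its seed partner miR-92a-3p the change was -0.95 ± 0.35, and for miR-93-5p, which has the seed of miR-106b-5p, -1.27 ± 0.32. The values did not sort by seed. With the seed of miR-106b-5p, miR-17-5p was at -0.91 ± 0.33, miR-20a-5p at -0.96 ± 0.33 and the scarce miR-20b-5p at -0.26 ± 0.62. Of members with other seeds, miR-19b-3p was at -0.29 ± 0.30. miR-19a-3p, which shares the seed of miR-19b-3p, was at -0.72 ± 0.28, and miR-18a-5p at -0.95 ± 0.42.

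miR-296-5p had a still lower value, at low abundance. It read 6.61, 2.84 and 2.16 RPM at 2 months and 1.7, 0.177, 0.472 and 0.439 RPM at 6 months. At 8 months it read 0.707, 1.54 and 1.01 RPM, and the groups did not overlap. The 1.7 RPM of replicate 1 at 6 months is 1 count, so the separation from 2.16 RPM is fragile. The log2 change was -2.48 ± 0.46 (unadjusted p = 9.8e-05, edgeR adjusted p = 0.11; 0.023 without replicate 1 at 8 months). In the let-7 family, 4 of 9 members had an unadjusted p under 0.05 and were lower (beside 19.3% of miRNAs), with a median of -0.60 (-0.14 when scaled to miRNAs). Only miR-98-5p, of that family, had all older libraries below the younger ones, and its change was -1.04 ± 0.30. Without replicate 1 at 8 months 20 miRNAs passed after adjustment, all lower (7.27% of miRNAs, beside 2.03% of all RNAs). Of these, 10 were in the red cell and miR-17-92 lists, and the other 10 included miR-296-5p, miR-98-5p, miR-423-5p, miR-140-3p and miR-374b-5p, named after their values had been seen.

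Other cell and tissue lists gave no such counts. Of the members tested, 5 of 5 for liver, 3 of 4 for platelets and myeloid cells, 4 of 5 for lymphocytes, 4 of 4 for vessels, 2 of 7 for muscle, 2 of 6 for brain and 1 of 4 for pancreas, none had an unadjusted p under 0.05 at 6-8 months. miR-122-5p, the abundant hepatocyte miRNA, read 81.2, 14.5 and 12.7 RPM at 2 months and 3.91 to 73.3 RPM at 6-8 months (log2 change -0.88 ± 0.69). miR-223-3p, high in myeloid cells and platelets, read 26.6 to 59.6 RPM at 2 months and 28.5 to 134 RPM at 6-8 months (0.27 ± 0.40). The endothelial miR-126a-3p was at 0.07 ± 0.49. Cardiac muscle miR-208a-3p and neuronal miR-9-5p lay below the filter in these libraries. In the 6- and 8-month contrasts the medians were 0.20 and -1.14 for liver, -0.20 and -1.18 for lymphocyte and 0.39 and -0.32 for vascular miRNAs.

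The miR-29 family, which represses collagen genes, had 3 tested members with a median of 0.45, and none with an unadjusted p under 0.05. miR-29a-3p read 69.2, 25.7 and 46.2 RPM at 2 months, 114, 65, 70.5 and 134 RPM at 6 months, and 56.9, 69 and 33.2 RPM at 8 months. The 6-month libraries were mostly higher and the 8-month libraries lay within the range of 2 months. The log2 change was 0.43 ± 0.38 for 6-8 months, and the family medians were 0.79 at 6 months and -0.01 at 8 months. Of the 8 miRNAs that the study named as altered with age across organs, 3 passed the filter in these libraries, miR-29a-3p, miR-29c-3p and miR-1895, with a median of 0.43. The miRNAs of the imprinted Dlk1-Dio3 cluster, high in embryonic and early postnatal tissue, were nearly all below the filter (1 of 40 tested). The 2 miRNAs with a higher value at an unadjusted p under 0.05 were miR-5108 (0.75 ± 0.31) and miR-875-5p (1.46 ± 0.67), each with overlap between the groups. The remaining lists held the miR-30 family (median -0.44, 5 tested), inflammation miRNAs (0.02, 3 tested), adipose miRNAs (-0.45, 5 tested, 1 lower at an unadjusted p under 0.05) and the H19 and Igf2 miRNAs (1 tested, miR-483-5p, at 0.70 ± 0.49).

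In tRNA, values were lower at 6-8 months for 388 of 407 genes (95.3% with a log2 change below 0, beside 35.9% of all RNAs), and the isotypes were spread over a wide range. Without replicate 1 at 8 months 136 of 407 tRNA genes passed after adjustment, all lower (33.4%, beside 2.03% of all RNAs). The isotype counts below are of genes lower at an unadjusted p under 0.05, which held for 40.8% of tRNAs and 4.01% of all RNAs. Proline tRNA had the lowest median, -1.65, with 15 of 16 genes at an unadjusted p under 0.05. In 14 of the 16 all older libraries lay below the younger, beside 7.86% of tRNAs and 0.519% of all RNAs. Histidine tRNA followed at -1.41 (9 of 10 genes) and glutamate tRNA at -1.38 (19 of 19). The initiator methionine tRNA, which starts translation, had -1.24 (9 of 9), threonine -1.16 (17 of 17) and cysteine -1.12 (46 of 54). At the other end were glutamine at -0.15, tryptophan at -0.24, aspartate at -0.30 and alanine at -0.32. When scaled to miRNAs these 4 were at 0.26, 0.28, 0.11 and 0.09, below the median of all RNAs on that scale (0.65). Proline, histidine and glutamate were at -1.20, -0.98 and -0.93 on that scale. Leucine and lysine tRNAs had 0 genes past an unadjusted p of 0.05 of 26 and 32. Glycine tRNA was divided, with 13 of 27 genes lower and a median of -0.54. The copies of an isotype share reads, so the counts of genes follow a few sequences.

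Among single genes, tRNA-Pro-TGG-2, with 4 copies of identical counts, read 39932, 26120.1 and 42778 RPM at 2 months. At 6 months it read 18232, 13004, 9952 and 23496 RPM and at 8 months 11173, 13551 and 9329 RPM. All older libraries lay below all younger ones (log2 change -1.65 ± 0.41, edgeR adjusted p = 0.20; 0.029 without replicate 1 at 8 months). tRNA-Pro-TGG-4-1 read 315, 473 and 1144 RPM, then 157, 177, 181 and 314 RPM and 128, 171 and 145 RPM. Its change was -2.16 ± 0.38 (edgeR adjusted p = 0.10; 0.021 without that library), and the highest 6-month library nearly met the lowest 2-month one. tRNA-Glu-TTC-1, also with 4 copies, had 3361 to 8887 RPM and 1015 to 3073 RPM without overlap, at -1.97 ± 0.42. tRNA-His-GTG-1-1 was at -1.74 ± 0.35 and tRNA-Val-TAC-1 at -1.73 ± 0.36. tRNA-Gly-GCC-2, the source of a fragment common in plasma, had 6991 to 17339 RPM and 2939 to 8096 RPM, with overlap, at -1.40 ± 0.45. The RPM figures for one gene and another are not per length and give no order of abundance between them.

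**Figure D5:**
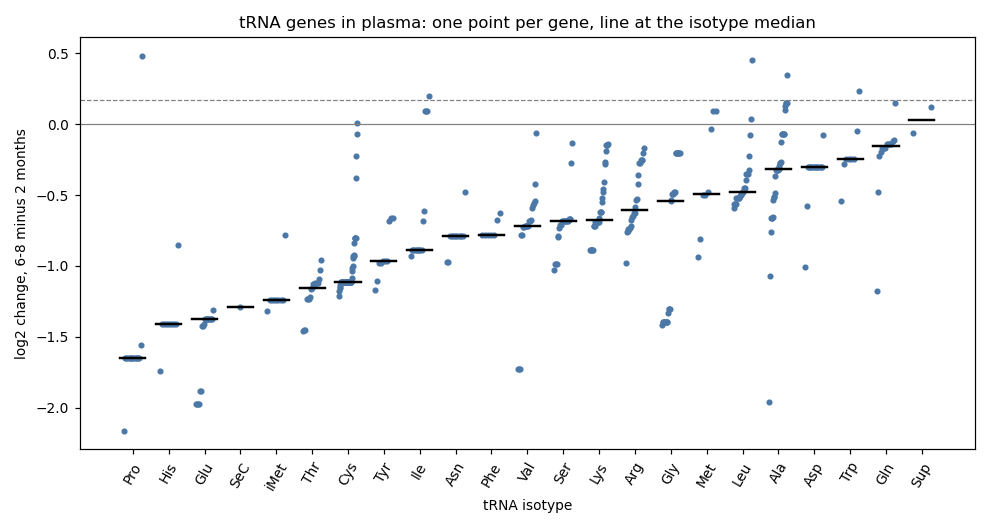
Fitted log2 change of 6-8 minus 2 months (TMM) for tRNA genes, 1 point per gene, by isotype, ordered by the isotype median (black line); the dashed line is the median of all RNAs (0.17). Proline, histidine and glutamate lie lowest (-1.65, -1.41 and -1.38), and glutamine lies near 0 (-0.15).

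Many of the rRNA entries are annotated copies of 5S rRNA, the small RNA of the large ribosomal subunit. Rn5s, whose 32 copies have identical counts, read 5935, 2515 and 4329 RPM at 2 months. It read 2041, 810.1, 1224 and 896 RPM at 6 months and 3459, 1101 and 2136 RPM at 8 months. The 6-month libraries all lay below 2 months, whereas replicate 1 at 8 months lay above replicate 2 at 2 months. The log2 change was -1.48 ± 0.53 for 6-8 months, -2.14 ± 0.55 for 6 months and -0.90 ± 0.58 for 8 months (edgeR adjusted p = 0.41 for 6-8 months; 0.023 without replicate 1 at 8 months). n-R5s219, an annotated 5S copy at chr1:149841530-149841661, read 5.63, 7.27 and 4.32 RPM and 0 to 2.56 RPM, with a change of -2.02 ± 0.33 (unadjusted p = 2.7e-05). n-R5s183 and n-R5s71 were at -2.06 ± 0.43 and -1.79 ± 0.40. CT010467.1, annotated as rRNA at chr17:39846353-39848827 and the most abundant rRNA entry, went from 89460 ± 8452 to 86756 ± 34008 RPM (mean ± SD), a change of -0.22 ± 0.56.

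Of the 407 RNAs called lower without replicate 1 at 8 months, that library had RPM at or above the lowest 2-month library in 228. It had the highest RPM of the 7 older libraries in 180. With that library in the fit none of the 407 passed, so the selection itself favours RNAs in which it was high. For 166 of the 407, the other 6 older libraries all lay below 2 months. In the 86 rRNAs called, it was at or above the lowest 2-month library in 77, whereas in the 20 miRNAs called this held for 3. By class the 407 comprised 136 tRNAs (33.4%), 86 rRNAs (55.5%), 77 piRNAs (7.16%), 53 circRNAs (0.499%), 29 lncRNAs (0.425%) and 20 miRNAs (7.27%), with few in the remaining classes. The shares are of the RNAs tested in each class, beside 2.03% of all RNAs.

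Piwi-interacting RNA (piRNA) silences transposons in the germ line. oocyte_piRNA2654 had the smallest p over all RNAs (1.3e-05; edgeR adjusted p = 0.10). It read 337, 245 and 459 RPM at 2 months, 119, 93.6, 91.7 and 116 RPM at 6 months and 120, 81.2 and 102 RPM at 8 months. All older libraries lay below the younger ones with a log2 change of -1.99 ± 0.31, and the adjusted p was 0.013 without replicate 1 at 8 months. oocyte_piRNA1916 read 577 to 1552 RPM and 118 to 393 RPM, at -2.38 ± 0.38. Both were entries of the piRNA database, and whether their reads are piRNA was not tested. The piRNA class as a whole had a median of -0.00 and RNAs in both directions (127 lower, 104 higher).

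Y RNA, a small RNA of the Ro ribonucleoprotein whose fragments circulate, had 2 tested members with a median of -0.95 (-0.40 when scaled to miRNAs). Rny1, at chr6:47788069-47788180, read 111, 62.2 and 151 RPM at 2 months, 54.5, 64.6, 71.8 and 73.5 RPM at 6 months and 67.7, 47.7 and 28.8 RPM at 8 months (-1.14 ± 0.37). Replicate 2 at 2 months lay within the older range. 7SL, the RNA of the signal recognition particle, had a median of -0.57 over 4 entries with none at an unadjusted p under 0.05, 7SK, which holds back transcription elongation, was at -0.34 (0.13 when scaled to miRNAs) and the vault RNA at -0.65. snoRNAs had medians of 0.30 (19 C/D box) and 0.31 (22 H/ACA box), and Gm23598, annotated as a snoRNA at chr2:150883723-150883866, was lower in all 7 libraries (8.87 to 19.4 RPM and 3.4 to 8.78 RPM; -1.76 ± 0.32). Gm23098, a misc_RNA at chr6:127849221-127849519, was at -1.69 ± 0.33. In snRNA, 24 of 328 were lower (7.32%) and 18 higher (5.49%) at an unadjusted p under 0.05, beside 4.01% and 4.99% of all RNAs.

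lncRNA held 94 lower and 284 higher of 6823 at an unadjusted p under 0.05, and circRNA 200 lower (1.88%) and 579 higher (5.45%) of 10623, beside 4.01% and 4.99% of all RNAs. Gm50025 read 27.4, 23.6 and 43.8 RPM at 2 months, 1.7, 7.26, 10 and 8.34 RPM at 6 months and 6.37, 8.55 and 9.84 RPM at 8 months (log2 change -2.25 ± 0.35, edgeR adjusted p = 0.10; 0.018 without replicate 1 at 8 months). Gm11588, at chr1:61440101-61469475, read 29.1 to 47.3 RPM and 9.46 to 22.6 RPM (-1.67 ± 0.29), and Gm12273, at chr11:61950915-61952736, had -1.46 ± 0.29. In the other direction, 4930545E07Rik read 1.42 to 2.57 RPM and 3.18 to 11.4 RPM (1.52 ± 0.39), with all 7 older libraries above the younger. Gm29686 and 1810073O08Rik did likewise, at 1.36 ± 0.32 and 1.01 ± 0.27. The direction of these 3 was the same under TMM, DESeq2 size factors, RPM scaling and scaling to miRNAs. The circRNA with the lowest value, mmu_circ_0010706 of host gene Nbea, read 1342 RPM in replicate 1 at 2 months and at most 1.06 RPM in every other library, so its log2 change of -9.47 rests on that 1 library. mmu_circ_0002528 of Gnptab was higher in all 7 libraries, at 1.01 to 1.77 RPM against at most 0.367 RPM (2.94 ± 0.70). It reached 1 RPM in older libraries alone and so passed the filter through the group in which it was high. Its separation is therefore not independent of the filter.

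With 6 and 8 months apart, 0 RNAs passed after adjustment for 6 against 2 months (0%), 1 for 8 against 2 months (0.00499%) and 0 for 8 against 6 months (0%). Unadjusted, the contrast of 6 and 2 months had 998 lower (4.98%) and 977 higher (4.88%), and that of 8 and 2 months 586 lower (2.92%) and 935 higher (4.67%). The direct contrast of 8 and 6 months had 452 lower (2.26%) and 887 higher (4.43%). The RNA that passed was piR-138391, a piRNA database entry. It read 2.2, 1.77 and 1.25 RPM at 2 months, 1.7, 11.9, 7.31 and 13.8 RPM at 6 months and 23.8, 22.2 and 43.1 RPM at 8 months. All 8-month libraries were above all others, and it rose at 8 months by a log2 change of 4.03 ± 0.51 (unadjusted p = 2e-06, edgeR adjusted p = 0.0398). The change was 2.13 ± 0.48 at 6 months and 1.89 ± 0.42 between 6 and 8 months. No RNA passed when replicate 1, 2 or 3 at 2 months, replicate 2, 3 or 4 at 6 months or replicate 3 at 8 months was left out.

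The rRNA class had medians of -1.996 at 6 months, -0.90 at 8 months and 0.96 for 8 minus 6 months. tRNA medians were -0.87 and -0.69, miRNA medians -0.37 and -0.60, and snoRNA medians -0.58 and 0.28. The red cell miRNAs were lower at both ages, with medians of -1.72 at 6 months and -1.31 at 8 months. miR-455-3p, known for its role in cartilage, read 4.04, 2.66 and 4.1 RPM at 2 months, 1.7, 0.708, 2.12 and 2.41 RPM at 6 months and 0.354, 0 and 0.252 RPM at 8 months. Its log2 change was -3.99 ± 0.65 at 8 months (edgeR adjusted p = 0.172) and -1.36 ± 0.49 at 6 months. mmu_circ_0011326 read 2.39 to 5.67 RPM at 2 months, 3.4 to 7.46 RPM at 6 months and 10, 28.7 and 44.4 RPM at 8 months, with 2.68 ± 0.43 between 8 and 6 months (edgeR adjusted p = 0.466).

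The EVs of the same mice gave the comparison with the other blood fraction. Whether the change from 2 to 6-8 months differed between plasma and EVs was tested as an interaction over 20 libraries (edgeR). Of 19820 RNAs, 0 passed (0%) and 1062 (5.36%) had an unadjusted p under 0.05. This fit, which gave the values below, did not pair the EV and plasma libraries of a mouse. With age and replicate number as a block for the mouse, 0 passed and 1031 had an unadjusted p under 0.05 (edgeR). For miR-144-5p, EV libraries read 36.6, 37.2 and 49.5 RPM at 2 months and 10.1 to 18.9 RPM at 6-8 months, and the change in plasma differed from that in EVs by -0.02 ± 0.42 on the log2 scale. For miR-451a the difference was 0.19 ± 0.62 and for miR-486a-5p -0.32 ± 0.61. tRNA-Pro-TGG-2 differed by -0.25 ± 0.66. Some named RNAs went in opposite directions in the fractions, none past the threshold. n-R5s219 was at 0.353 to 0.812 RPM in EVs at 2 months and 0 to 3.26 RPM at 6-8 months, with a difference of -3.00 ± 0.83 (unadjusted p = 0.0017, edgeR adjusted p = 0.80). Gm24991, an rRNA entry, had means of 1.57 and 0.338 RPM in EVs and 0.236 and 8.26 RPM in plasma at 2 and 6-8 months, a difference of 7.13 ± 1.93. Its older plasma libraries were scattered, from 0 to 23.4 RPM with a median of 3.15 RPM. For miR-875-5p the EV means were 2.35 and 0.977 RPM and the difference was 2.85 ± 0.84. Gm22667, a misc_RNA, and n-R5s52 differed by 5.10 ± 1.48 and 4.28 ± 1.33, also with lower EV means and higher plasma means at 6-8 months. These intervals are wide, and equal change in plasma and EVs is not shown by them.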

How the data were processed

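Plasma libraries at 2 (3), 6 (4) and 8 months (3) were taken by their labels. Cells were removed by centrifugation and EVs by ultracentrifugation, per the labels. The authors deposited estimated counts per RNA, of which 46 miRNAs were not whole and were rounded, and a signal table in RPM, made from them with each count divided by 1 number per library that is not its total. Per the submitters' processing notes the build was mm10 and R 4.0.4 was used; the sources used here name no aligner for these libraries.

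RNAs of at least 1 RPM in 2 of 10 libraries were tested in 1 table with edgeR 4.0.16 (TMM, quasi-likelihood test, limma 3.58.1, R 4.3.3), Benjamini-Hochberg adjustment and a threshold of 0.05. One fit held 2 groups, another the 3 ages, and the last 20 libraries with the interaction of age and fraction. Class shares were compared by two-sided exact permutation tests. Alternatives were DESeq2 1.42.0, other scalings and filters, libraries left out and the replicate number as a block. Scripts were tested on simulated data. Other steps used scipy 1.17.1, pandas 2.3.3 and numpy 2.4.6 in Python 3.11.15, with figures from matplotlib 3.10.9. Annotation was GENCODE M21 on GRCm38.

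RNAs named were, per class, those with the smallest p in each direction and the most abundant, those with the smallest p in the other contrasts, the 2 most abundant members of each list of marker and family RNAs, and the global aging miRNAs of the study. The age groups compared, taken whole by label, and the lists were chosen with earlier results of these data known. Rows of mitochondrial RNA were not used here. Precision is set by depth, 928651 to 20634744 counts per library, and by the spread between 3 to 4 libraries per age.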

Additional observations from a re-analysis of the deposited data

Results flagged for a closer look

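In groups of 4 libraries, here the 6-month plasma, a library was marked where its gap to the next exceeded Dixon's 95% critical value as a part of the group's range. Of 66 RNAs tested in this way 3 were marked, and chance marks about 1 in 20. tRNA-Pro-TGG-4-1 was highest in replicate 4, at 314 RPM, against 157 to 181 RPM in the other 3. Gm12273, a lncRNA, was also highest in replicate 4, at 58.8 RPM, against 35.7 to 39.2 RPM. Gm25980, a misc_RNA, was highest in replicate 2, at 1.42 RPM. None of the 3 marks fell on the shallow replicate 1.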

How the results depend on the processing

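Alternatives were scored against the edgeR counts of 0 calls (6-8 against 2 months), 0 (6 against 2), 1 (8 against 2) and 0 (8 against 6), and 0 miRNAs. DESeq2 called 220, 332, 142 and 13 RNAs and 15 miRNAs. It left 9024, 15581, 15965 and 13269 RNAs without an adjusted p in these contrasts. With no filter, edgeR called 701, 739, 386 and 415 RNAs and 17 miRNAs. For 6-8 against 2 months, TMM over miRNAs gave 2 calls, the replicate block 8, and adding up replicates 2 and 3 at 2 months 5. The single call at 8 months became 0 with DESeq2 size factors in edgeR, limma on log2(RPM + 1), filterByExpr, a minimum of 5 RPM in 5 libraries, all 14 plasma libraries, the replicate block, the addition of those 2 replicates, or rows of identical counts taken once (chosen after seeing the data). Leaving out each library in turn gave 0 to 426 calls for 6-8 against 2 months, 0 to 7 for 8 against 2, 0 to 5 for 8 against 6, and 0 to 20 miRNAs. Of 1235 values of 56 named RNAs, 1128 kept direction and side of the threshold, 101 passed it newly and 6 reversed: the log2 change of tRNA-Trp-CCA-2-1 (-0.0222 without libraries under 2000000 counts, which is without replicate 1 at 6 months; -0.0634 without replicate 2 at 2 months; -0.112 with replicates 2 and 3 at 2 months added up; -0.0634 to 0.511 over single libraries left out), the log2 change of tRNA-Leu-TAA-3-1 (-0.014 without replicate 3 at 2 months and up to 0.715 without replicate 1) and the log2 change of tRNA-Ala-CGC-7-1 (-0.0147 under the replicate block). The difference in rRNA share became 0.366 points without replicate 4 at 6 months and was as low as -1.53 without replicate 1 at 8 months; the other 148 of 149 class share values kept direction and side. The causes were not tested. Replicate numbers do not pair mice across ages: correlations of 9 same-numbered pairs were -0.254 to 0.308, 5 over 0.1, and 2 of 9 libraries lay closest to their own number at both other ages. The shallowest library held 4977 miRNA counts, which limits its precision.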

Other observations

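Plasma of older mice, 12 and 18 months with 2 libraries each, lay outside the comparison, and its values are given without a test. tRNA-Pro-TGG-2 read 34295 and 43584 RPM at 12 months and 39792 and 45205 RPM at 18 months, all above the highest 6- or 8-month library (23496 RPM) with 2 of the 4 within the range of 2 months and 2 above it. tRNA-Glu-TTC-1 read 3287 and 5822 RPM at 12 months and 4158 and 7779 RPM at 18 months, against 1015 to 3073 RPM at 6 and 8 months. oocyte_piRNA2654 read 173, 166, 185 and 348 RPM in these 4 libraries, against 81.2 to 120 RPM at 6 and 8 months. miR-451a read 833 and 2284 RPM at 12 months and 835 and 1346 RPM at 18 months. miR-296-5p read 0.29 to 0.921 RPM in the 4 libraries. n-R5s219, at most 7.27 RPM in the 10 libraries, read 79 and 217 RPM at 12 months and 6.68 and 22.9 RPM at 18 months.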
